A study of Mus musculus with 8 samples.

Results

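A set of 9 genes that mark stomach or intestine was followed in embryonic mouse pancreas after loss of Sox9. They were chymosin (Gm131 on the array, now Cym), the trefoil factors Tff1, Tff2 and Tff3, the homeobox genes Cdx1 and Cdx2, the fatty acid-binding proteins Fabp1 and Fabp2, and villin (Vil1). They were chosen by name from earlier results on these arrays, in which the mutant and wild-type signals of these genes had been seen, so their differences between genotypes are given as descriptions without a test. All 9 were on the array, as 11 of its 41174 probes and as 9 of its 27816 genes and unnamed features.

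RNA came from pancreatic epithelium, dorsal and ventral, dissected at e15.5, in mouse the stage when pancreatic endocrine, acinar and duct cells form. The Sox9 mutant embryos were Sox9fl/fl;Rosa26-CreER, with both Sox9 copies flanked by loxP sites and a Cre recombinase that tamoxifen switches on. The wild-type littermates carried Rosa26-CreER and normal Sox9. Tamoxifen was given to the dams at e12.5, 6 mg per 40 g, so embryos of both genotypes had the Cre and were exposed to the drug. Rosa26 is active in nearly all cells, and the deletion was therefore not restricted to one cell type. The strain background was mixed, with FVB/N, C57Bl/6J and CD1 contributions. Each of the 4 mutant and 4 wild-type arrays held RNA pooled from 4 pancreata, so the spread is one between pools and not between single embryos.

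Stomach, pancreas and intestine form next to each other from the gut tube. CDX2 and CDX1 are the homeodomain factors that set up and keep intestinal identity, and CDX2 binds near many genes of the absorptive enterocyte. The trefoil factors are small secreted peptides of mucous cells, TFF1 and TFF2 mainly in the stomach and TFF3 in intestinal goblet cells. Chymosin is a milk-clotting protease of the newborn stomach in many mammals. FABP1 and FABP2 carry fatty acids inside enterocytes, FABP1 also in hepatocytes, and villin bundles actin in the microvilli of the brush border and is also present in pancreatic epithelium.

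Promoter windows were read for 5 members, Cym, Cdx2, Fabp1, Fabp2 and Vil1, and those of the other members were not searched. Shown are the 3 with a match to at least one of 3 short core motifs: TTTAT for CDX factors, GATAA for GATA factors and ACAAT for SOX factors. The windows run from 250 bases before to 50 bases after the annotated start, in RefSeq's GRCm38.p6 annotation. Capitals mark a match on either strand, so that ATAAA is a reverse TTTAT, and overlapping matches run together. Cym (chr3:107221683-107221982, minus strand), Fabp1 (chr6:71199629-71199928, plus strand) and Fabp2 (chr3:122894822-122895121, plus strand) read, 5′ to 3′:
Cym: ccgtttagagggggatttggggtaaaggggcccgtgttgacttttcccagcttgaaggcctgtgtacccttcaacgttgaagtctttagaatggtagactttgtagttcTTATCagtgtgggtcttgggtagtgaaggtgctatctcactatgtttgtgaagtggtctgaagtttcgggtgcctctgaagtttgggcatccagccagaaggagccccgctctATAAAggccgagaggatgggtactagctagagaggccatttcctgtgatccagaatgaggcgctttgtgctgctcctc
Fabp1: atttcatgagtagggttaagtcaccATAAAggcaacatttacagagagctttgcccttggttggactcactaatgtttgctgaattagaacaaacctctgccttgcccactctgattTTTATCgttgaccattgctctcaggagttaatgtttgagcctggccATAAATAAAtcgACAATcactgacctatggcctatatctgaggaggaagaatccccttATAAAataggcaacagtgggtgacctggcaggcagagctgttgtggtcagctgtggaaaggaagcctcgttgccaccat
Fabp2: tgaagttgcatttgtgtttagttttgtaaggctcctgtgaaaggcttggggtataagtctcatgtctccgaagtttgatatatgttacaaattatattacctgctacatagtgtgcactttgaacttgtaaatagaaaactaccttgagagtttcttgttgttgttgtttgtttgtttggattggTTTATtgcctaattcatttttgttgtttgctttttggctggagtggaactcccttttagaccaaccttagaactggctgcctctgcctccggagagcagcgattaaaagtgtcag

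The Fabp1 window held 5 matches to the CDX core, 1 to the GATA core and 1 to the SOX core. The Cym window held 1 CDX core and 1 GATA core, and the Fabp2 window held 1 CDX core. The letters ATAAA are also part of the common TATA box. Of 32851 promoter windows of this length, 40.0% held the CDX core, 25.4% the GATA core and 31.0% the SOX core, so single matches are common. The windows of Cdx2 and Vil1 held none of these letters, which says nothing on whether the factors act there.

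Levels below are log2 processed signals after subtraction of each array's 75th percentile, and levels of different probes are not compared. Mutant replicate 2 had a median processed signal of 756 scanner units, where the other 7 arrays had 219 to 272. On its array 62.5% of the 9723 probes that were well above background on none of the other 7 arrays were called well above background, at a median level of -3.68, where the other arrays had -8.82 to -8.13. Values of low-signal genes on mutant replicate 2 are therefore given beside values without it, and its part in each result was not tested. All mutant arrays lay on one slide and in one scan, and all wild-type arrays on another, so the effects of genotype, slide and scan cannot be told apart. The main Sox9 probe had levels of 0.59, 0.40, 0.52 and 0.47 in mutant replicates 1 to 4, against 1.77, 1.90, 1.87 and 1.77 in wild type. Sox9 fell by 1.33 on the log2 scale (SE 0.068, limma adjusted p = 8.05e-04). A second probe differed by -2.51, while the remaining probe differed by 0.63, and by 0.23 without mutant replicate 2.

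Of the markers of the labelled tissue, Epcam and Cdh1, the epithelial adhesion genes, were well above background on every array, with differences of -0.05 and -0.01 between genotypes. The 8 pancreatic epithelial markers summed to levels of 7.69 to 8.31 in mutants and 8.36 to 8.59 in wild type. Pdx1, the homeobox gene of early pancreas and duodenum, was the 1 member of that list called, lower by 1.05 (limma adjusted p = 0.00170). Ins2, Nkx6-1, Ptf1a and Cpa1 differed by -1.45, -0.58, -0.32 and -0.21, whereas Gcg differed by 0.22.

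Gm131 was the member with the clearest separation of genotypes. Its probe (A_52_P395492, chr3:107344018-107344077 on mm8, minus strand) had processed signals of 5769, 7294, 5988 and 6991 units in mutant replicates 1 to 4, against 1412, 1844, 1587 and 1663 units in wild type. As levels these were 1.34, 1.58, 1.55 and 1.76 in mutants and -0.48, -0.16, -0.23 and -0.41 in wild type. All 4 mutant pools lay above all 4 wild-type pools, and every array was well above background. The means were 1.56 ± 0.18 in mutants and -0.32 ± 0.15 in wild type (SD, n = 4 pools each), a difference of 1.87 with an SE of 0.11, or 3.67-fold. Without mutant replicate 2 the difference was also 1.87. In these bulk samples, a change in the number of cells of a type and a change in RNA per cell cannot be told apart. The summed signal of 8 liver markers lay at 6.63 to 6.85 in mutants and 6.18 to 6.47 in wild type. Ambp made up most of that sum on every array, and averaged 6.42 in mutants and 6.05 in wild type. The highest sum was on mutant replicate 2, where Ambp was lowest among mutants, at 6.24, and Afp highest, at 4.89. Alb, Ahsg, Fga and Apoh differed by -0.49, -0.47, -0.37 and -1.20, and Afp, Fgb and Serpinc1 by 0.93, 0.88 and 0.35, all with overlapping genotypes. The part of liver tissue in the Gm131 difference was not tested.

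**Figure D1:**
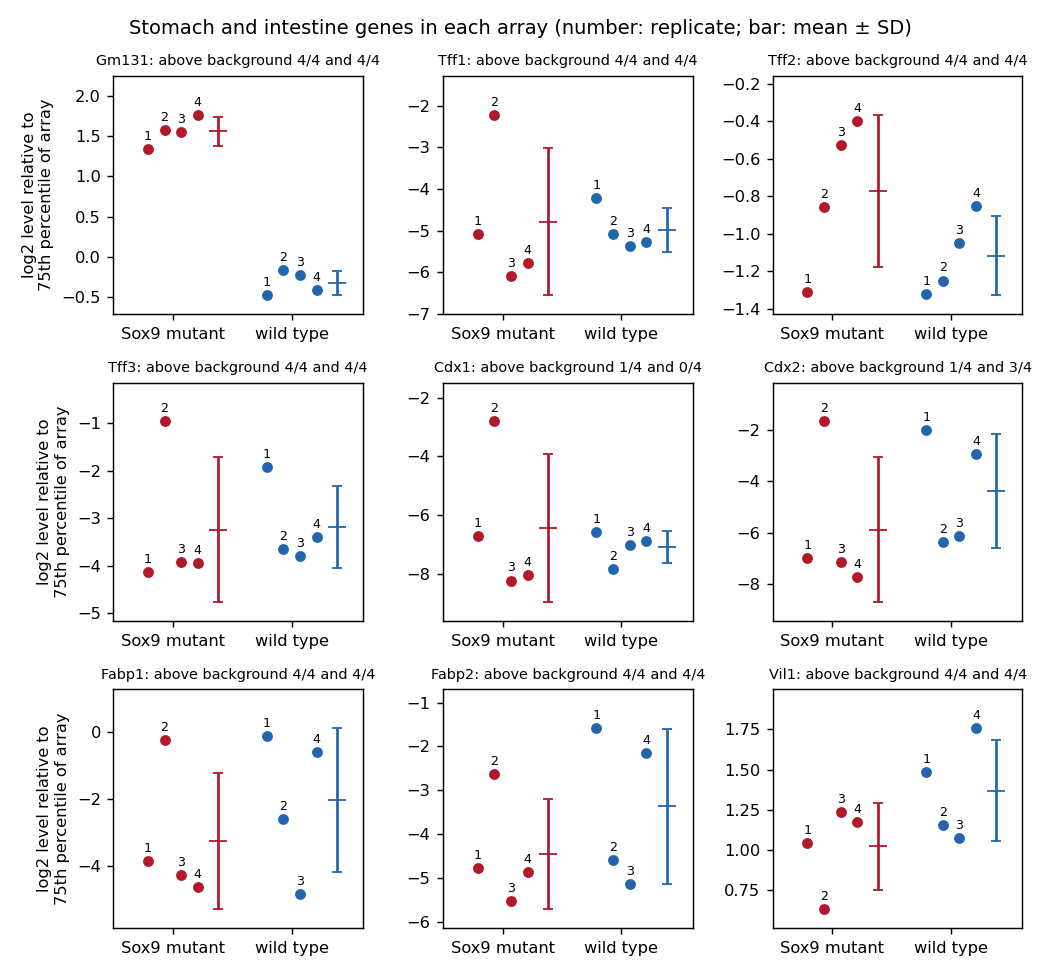
Log2 level of each member (main probe, or the brighter probe where 2 exist) on each array, with Sox9 mutant pools in red and wild-type pools in blue; numbers are replicates, bars are mean ± SD, and titles give the arrays well above background in mutants and wild type. Gm131 separates the genotypes, whereas mutant replicate 2 and wild-type replicates 1 and 4 are the high arrays for Cdx2, Fabp1 and Fabp2.

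The model fitted to all features called 1 of the 8 members it tested, Gm131, which was higher. Cdx1 did not pass the filter on dim probes. Over all 19386 features, 5.58% were called, 2.13% as higher and 3.45% as lower, and in 25.8% the 4 arrays of one genotype lay entirely above or below those of the other. Gm131 was also the only one of the 8 tested members whose genotypes did not overlap. Because the members were selected on this comparison, nothing is read from these counts.

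The 3 trefoil factor genes did not separate the genotypes. Tff2, whose product is secreted by mucous neck cells, had levels of -1.31, -0.86, -0.52 and -0.40 in mutants, against -1.32, -1.25, -1.05 and -0.85 in wild type. Mutant replicates 1 and 2 lay within the wild-type range while mutant replicates 3 and 4 lay above it. The means were -0.77 ± 0.41 in mutants and -1.12 ± 0.21 in wild type (SD, n = 4 each), and the difference was 0.34 with an SE of 0.21.

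Tff1, the peptide of gastric pit cells, had levels of -5.07, -2.22, -6.09 and -5.78 in mutants and -4.21, -5.08, -5.37 and -5.28 in wild type. Mutant replicate 2 was the highest array, and mutant replicates 3 and 4 were below all wild-type pools. The difference of 0.20 (SE 0.83) turned to -0.66 without mutant replicate 2, and to -0.33 with quantile normalization of all 8 arrays. Tff3, the goblet cell peptide, had levels of -4.13, -0.97, -3.93 and -3.95 in mutants and -1.93, -3.66, -3.80 and -3.41 in wild type. Mutant replicate 2 was again the highest array, followed by wild-type replicate 1. The difference was -0.05 (SE 0.79), and -0.81 without mutant replicate 2, where the other 3 mutant pools all lay below the wild-type pools.

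Cdx2 was near or below the background call on most arrays. Its processed signals were 18.3, 766, 14.6 and 9.82 units in mutant replicates 1 to 4, against 494, 25.1, 26.7 and 285 units in wild type. The corresponding levels were -6.96, -1.67, -7.14 and -7.71 in mutants and -1.99, -6.36, -6.12 and -2.95 in wild type. The probe was well above background on 1 mutant array and 3 wild-type arrays. Wild-type replicates 1 and 4 were high and replicates 2 and 3 low, so the wild-type pools were themselves spread over more than 4 log2 units. The difference between genotypes was -1.51 with an SE of 1.61, with mutant replicate 2 as the 1 mutant array above background. Without it Cdx2 was well above background on no mutant array. With the other 3 mutant pools set to the lowest levels called above background, the wild-type mean was 4.25-fold higher. This is not a lower bound, because wild-type replicate 2 was itself not well above background. The value rests on wild-type replicates 1 and 4.

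Cdx1, the paralog of Cdx2, had levels of -6.71, -2.80, -8.24 and -8.05 in mutants and -6.59, -7.85, -7.03 and -6.90 in wild type. It was well above background on the array of mutant replicate 2 alone. Its wild-type levels have only an upper bound, and no fold is given.

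Fabp1 showed the same arrays high as Cdx2. Its levels were -3.84, -0.23, -4.27 and -4.61 in mutants, against -0.13, -2.58, -4.82 and -0.58 in wild type, well above background on all 8 arrays. In scanner units, mutant replicates 1, 3 and 4 had 159, 107 and 84.2, whereas wild-type replicates 1 and 4 had 1800 and 1473 and wild-type replicates 2 and 3 had 345 and 65.8. The difference was -1.21 (SE 1.33), and -2.21, or 4.64-fold lower, without mutant replicate 2.

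Fabp2 had 2 probes. The brighter (A_51_P313581) had levels of -4.77, -2.63, -5.53 and -4.88 in mutants and -1.59, -4.60, -5.15 and -2.15 in wild type. The other (A_52_P453013) was well above background on 1 mutant and 2 wild-type arrays, with levels of -8.67, -2.23, -8.54 and -7.72 in mutants and -5.42, -8.28, -8.70 and -5.34 in wild type. Both probes were highest in replicate 2 among mutants and in replicates 1 and 4 among wild type. The brighter probe differed by -1.08 (SE 0.98) between genotypes, and by -1.69 without mutant replicate 2. The dimmer probe differed by 0.15, and by -1.37 without mutant replicate 2.

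Vil1 was well above background on all 8 arrays with both probes. The main probe had levels of 1.04, 0.63, 1.23 and 1.18 in mutants and 1.49, 1.16, 1.08 and 1.76 in wild type, with overlapping genotypes. Wild-type replicates 4 and 1 were again the highest arrays, and mutant replicate 2 was the lowest. The means were 1.02 ± 0.27 in mutants and 1.37 ± 0.31 in wild type (SD, n = 4 each), a difference of -0.35 with an SE of 0.19. The second probe had 0.53, -0.07, 0.58 and 0.61 in mutants and 1.15, 0.76, 0.53 and 1.30 in wild type, a difference of -0.52, or -0.37 without mutant replicate 2.

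The same wild-type pools were high for Isx, Lgals4 and Eps8l3, which are not members and were picked after their values were seen. Isx, an intestine-specific homeobox gene, had levels of -6.12, -3.55, -7.58 and -5.92 in mutants and -2.59, -5.89, -5.99 and -4.07 in wild type. Lgals4, a galectin of gut epithelium, had -2.36, -1.14, -2.40 and -2.22 in mutants and 0.85, -2.48, -3.11 and -0.31 in wild type. Eps8l3, an actin regulator of the EPS8 family, had -5.74, -7.00, -7.14 and -6.51 in mutants and -1.77, -5.30, -6.51 and -2.89 in wild type. None of the 3 passed the test between genotypes (limma adjusted p = 0.497, 0.587 and 0.182). Their differences were -1.16, -0.77 and -2.48, and -1.91, -1.06 and -2.34 without mutant replicate 2. Isx was well above background on 3 mutant arrays and Eps8l3 on 1. Other intestinal genes, also picked after their values were seen, varied. Itln1, an intestinal lectin, did not follow these pools, with -5.05, -4.56, -4.52 and -5.37 in wild-type replicates 1 to 4. Neither did Anpep, a brush border peptidase, with 4.06, 4.27, 4.23 and 4.25. Cdh17, with -4.45, -8.14, -6.93 and -5.62, and Lct, with -3.48, -3.65, -3.97 and -2.60, were highest in wild-type replicates 1 and 4 among wild type. Cdh17 was well above background on 2 wild-type arrays. Eps8l3, unlike Cdx2 and Fabp1, was not raised on the array of mutant replicate 2.

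**Figure D2:**
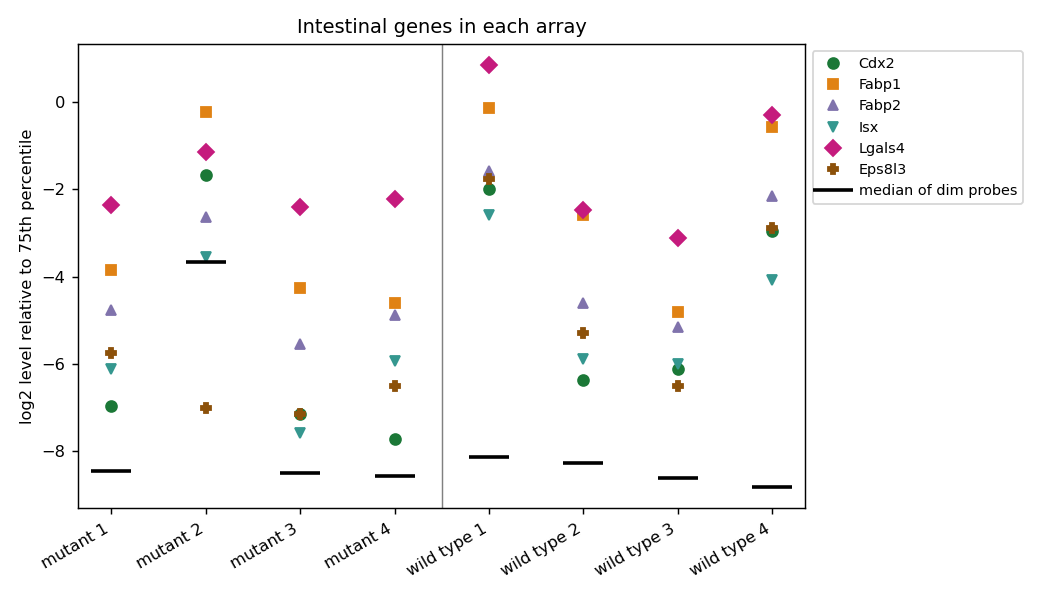
Log2 level of Cdx2, Fabp1, Fabp2 and 3 other intestinal genes on each array, mutant pools left and wild-type pools right; black bars give the median level of 9723 probes that were not above background on any array other than mutant replicate 2. Wild-type replicates 1 and 4 stand above wild-type replicates 2 and 3 for each gene, and the dim-probe median is -3.68 on mutant replicate 2 against -8.13 or lower elsewhere.

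Among the markers of smooth muscle, which surrounds the gut, Cnn1 had 0.03, -0.01, 0.16 and -0.02 in mutants and 0.96, -0.06, 0.08 and 0.73 in wild type, so that wild-type replicates 1 and 4 were high. Myh11 was also highest on these 2 arrays, at 0.23 and -0.07. The other 4 did not single out these arrays: in wild-type replicates 1 to 4, Acta2 had 3.93, 3.94, 3.98 and 3.94, Actg2 2.18, 2.16, 2.37 and 2.20, Des 0.40, 0.39, 0.40 and 0.44, and Tagln 3.50, 3.04, 3.49 and 3.50. The 6 smooth muscle markers summed to 4.77 to 5.08 in mutants and 4.95 to 5.15 in wild type, and all 6 were well above background on every array. None was called by limma, and 1, Des, had an unadjusted p under 0.05. Among liver markers, Alb, the serum albumin gene, had -1.78, 2.43, -1.60 and -1.89 in mutants and 0.45, 1.45, -1.30 and -1.47 in wild type. Its high arrays were mutant replicate 2, which was also high for Cdx2, Fabp1 and Fabp2, and wild-type replicates 2 and 1, of which replicate 1 was high for those genes. Of the 8 liver markers, Ambp was called, higher by 0.37 (limma adjusted p = 0.04998), and Fga and Apoh were not well above background on every array. The part of gut wall or liver tissue in the Cdx2, Fabp1 and Fabp2 values was not tested.

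Other stomach genes were compared to place Gm131. Of 22 genes of gastric glands, pits and chief cells, 15 were tested, 2 rose and 1 fell, against 2.13% and 3.45% of all features. Cldn18, a tight junction protein of stomach and lung, had -0.64, 0.10, -0.99 and -0.21 in mutants and -2.24, -1.87, -2.33 and -1.83 in wild type, a rise of 1.63 (SE 0.25, limma adjusted p = 0.0148). Atp4a, the catalytic subunit of the gastric proton pump, had -1.68, -1.14, -1.64 and -1.74 in mutants and -2.41, -2.39, -2.56 and -2.56 in wild type, a rise of 0.93 (SE 0.14, adjusted p = 0.0143), and its second probe differed by 1.03. Ctse, the aspartic protease cathepsin E, fell by 0.69 (adjusted p = 0.0421).

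Cblif, gastric intrinsic factor, and Anxa10, an annexin of gastric epithelium, had the largest differences on that list and were picked after their values were seen. Cblif was well above background on all 4 mutant arrays and on no wild-type array, with levels of -6.01, -2.16, -5.42 and -3.92 in mutants. It was at least 3.72-fold higher in mutants, or at least 2.23-fold without mutant replicate 2, and did not pass the test (limma adjusted p = 0.125). Anxa10 had -5.59, -0.71, -3.86 and -3.95 in mutants and -8.24, -8.38, -7.02 and -4.97 in wild type, and was well above background on 4 mutant arrays and 1 wild-type array. Its difference of 3.63, or 2.69 without mutant replicate 2, was thus taken largely against undetected signals and did not pass the test (adjusted p = 0.113). The list's median difference was 0.52, with 13 of 15 genes above 0, beside a median of -0.0045 over all features. Without mutant replicate 2 the median was 0.16 and 8 of 15 were above 0. The sign of the median also depended on the processing: with all 8 arrays it was -0.30 with quantile normalization, -0.36 with normexp background correction and 0.0019 with the series table.

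**Figure D3:**
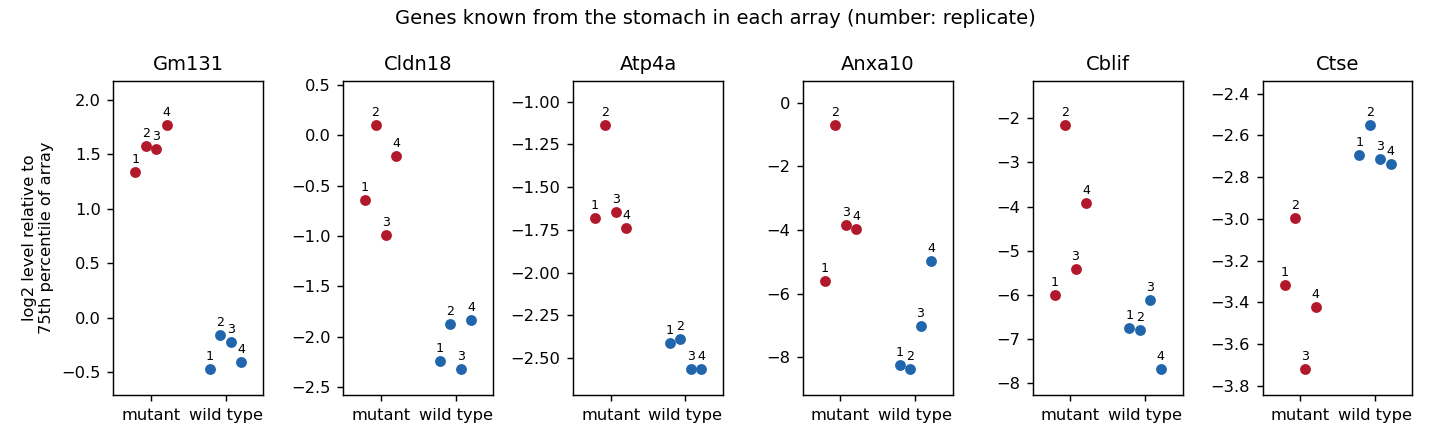
Log2 level of Gm131 and 5 other stomach genes on each array, mutant pools in red on the left and wild-type pools in blue on the right of each panel; numbers are replicates. Gm131, Cldn18, Atp4a and Cblif lie higher in every mutant pool than in any wild-type pool, Ctse lies lower, and Anxa10 overlaps.

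Intestinal genes went in both directions, with differences from -1.60 to 3.73. Of 44 genes of enterocytes, goblet cells and crypts, 30 were tested, 1 rose and 2 fell, beside 5.58% of all features called in either direction. Krt20, a keratin of differentiated enterocytes and gastric pit cells, had 1.77, 1.57, 1.76 and 2.37 in mutants and -2.11, -2.24, -1.34 and -1.78 in wild type, a rise of 3.73 (SE 0.24, limma adjusted p = 0.00136). Mttp, the transfer protein that loads lipid onto apolipoprotein B, fell by 0.61 (adjusted p = 0.0299), and Slc2a5, the fructose transporter, fell by 0.63 (adjusted p = 0.0332). The median difference was -0.04, and -0.23 without mutant replicate 2, when 1 gene was called higher and 8 lower. That fit called 3364 of all 19386 features, 1313 as higher and 2051 as lower. With all 8 arrays, the list's median was -0.29 with quantile normalization, -0.44 with median centring and -0.46 with normexp.

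Genes that work with villin in microvilli, or belong to its family, were also divided. Of 21 tested, 1 rose and 2 fell, beside 2.13% and 3.45% of all features, and the median difference was 0.02. Vill, the villin-like gene, averaged 0.91 ± 0.16 in mutants and 0.07 ± 0.22 in wild type (SD, n = 4 each), a rise of 0.83 (SE 0.13, limma adjusted p = 0.0167), and its second probe differed by 1.01. Cobl, an actin nucleator of the brush border, fell by 0.52 (adjusted p = 0.00854), and Scin, an actin-severing protein of the gelsolin family, fell by 1.01 (adjusted p = 0.0120).

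Among 19 transcription factors of gut patterning and gut cell types, 2 rose and 2 fell, beside 2.13% and 3.45% of all features. Creb3l3, a membrane-bound factor of liver and small intestine, rose by 1.16 (limma adjusted p = 0.0222). Barx1, a homeobox gene of stomach mesenchyme, rose by 0.27 (adjusted p = 0.0381). It differed by -0.13 when arrays were centred on their medians, a step that shifts all genes of an array alike. Klf5, a factor of proliferating crypt cells, fell by 0.42 (adjusted p = 0.0401), although its second, dimmer probe differed by 0.45. Gata6, a zinc finger factor of foregut and intestine, fell by 0.27 (adjusted p = 0.0487), with 2 other probes at -0.09 and -0.03. Sox2, a factor of the embryonic stomach that was picked after its values were seen, differed by 0.42 without passing the test (adjusted p = 0.0642).

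In the fatty acid- and retinoid-binding family to which Fabp1 and Fabp2 belong, 8 of 13 other genes were tested. Of these, 2 rose and 1 fell, beside 2.13% and 3.45% of all features. Fabp3, the form of heart and muscle, rose by 0.63 (limma adjusted p = 0.0280), and Rbp2, which carries retinol in enterocytes, rose by 0.99 (adjusted p = 0.0444), with a second probe at 0.57. Fabp7, the form of brain and glia, had -0.02, -0.41, 0.48 and -0.15 in mutants and 1.07, 0.74, 1.20 and 0.93 in wild type, a fall of 1.01 (adjusted p = 0.0324).

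**Figure D4:**
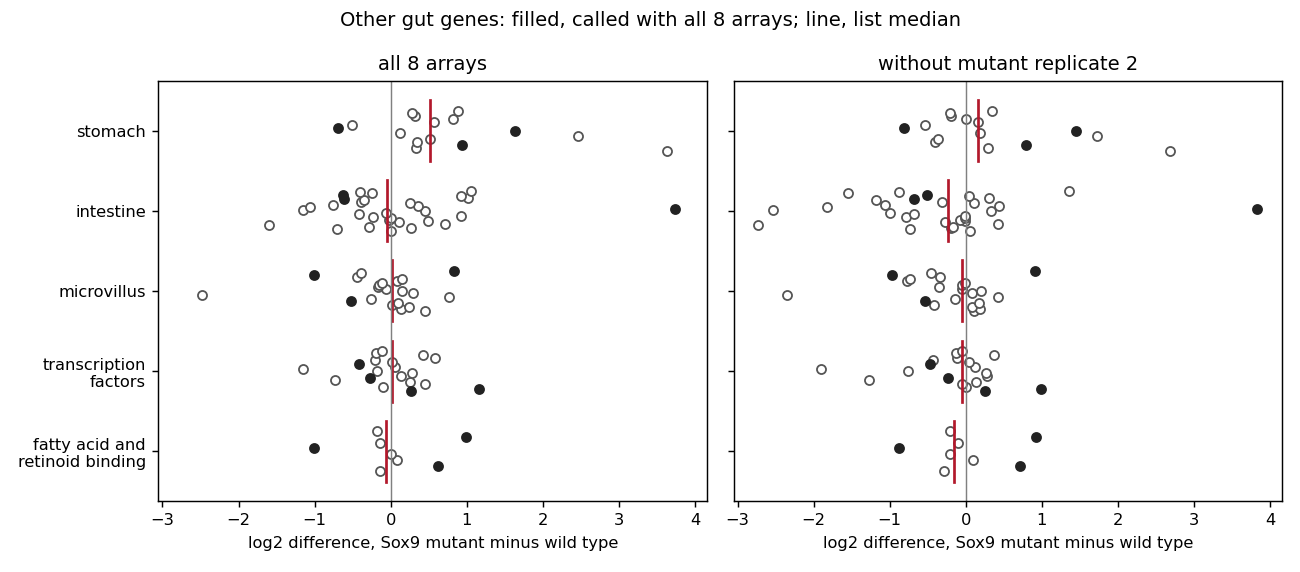
Log2 difference, Sox9 mutant minus wild type, for each tested gene of the 5 lists, with all 8 arrays on the left and without mutant replicate 2 on the right; filled points were called with all 8 arrays and red lines are list medians. The stomach median is 0.52 with all arrays and 0.16 without mutant replicate 2, and it turned to -0.30 with quantile normalization, which is not drawn.

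The calls differed in how far they rested on single arrays. Krt20, Cobl and Scin kept their calls whichever of the 8 arrays was left out. Atp4a lost its call without wild-type replicate 3, and Cldn18 without wild-type replicate 1 or 3, while their differences stayed between 0.79 and 0.99 and between 1.45 and 1.82. Vill kept its call in 4 of these fits, Creb3l3 in 3, and Mttp, Fabp7 and Rbp2 in 2 each. Ctse, Slc2a5, Barx1, Klf5, Gata6 and Fabp3 were called in the fit without mutant replicate 2 and in none of the other 7. With any 1 array left out, Gm131 differed by 1.80 to 1.95, Fabp1 by -2.21 to -0.58, Fabp2 by -1.69 to -0.49 and Vil1 by -0.44 to -0.22.

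The 5 features whose levels followed Gm131 most closely over the 8 arrays were Smad7, Akr1c14, Kctd14, Cdh16 and Neurl3 (Lincr on the array). Their Pearson correlations with Gm131 were 0.990, 0.990, 0.988, 0.988 and 0.985, and 0.983 to 0.991 over the 7 arrays without mutant replicate 2. The arrays share their genotype and slide, so these values mostly restate the 2 groups, and since that choice fixes the differences of the 5 genes between genotypes, they are given without a test. Kctd14 had -2.09, -1.39, -0.75 and -1.35 in mutants and -5.49, -4.90, -5.04 and -5.68 in wild type, a difference of 3.88. Akr1c14, an aldo-keto reductase, differed by 2.67, and Cdh16, a cadherin of kidney tubules, by 2.09. The difference was 1.19 for Neurl3, a ubiquitin ligase, and 0.45 for Smad7, an inhibitor of TGF-beta signalling, which differed by 0.05 when arrays were centred on their medians.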

How the data were processed

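RNA of 4 Sox9 mutant and 4 wild-type pools, about 250 ng each, was labelled with Cy3 and hybridised to Agilent arrays (design 014868, one colour), one array per pool. Per the file headers, the deposited intensity values came from Agilent Feature Extraction 9.5.3.1, with background subtraction and spatial detrending in the processed signal and no step between arrays. The deposited values of the series as a whole are also an intensity, on a linear scale, used as an alternative. They tracked raw median spot signals (Pearson r across probes at least 0.9817 per array), with log2 medians of 8.30, 8.47, 8.31 and 8.30 for mutant and 8.32, 8.32, 8.31 and 8.31 for wild-type replicates 1 to 4, and their normalization steps are not given in the sources used here. The submitters' processing notes name limma.

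Levels are log2 processed signals minus the 75th percentile of each array. Control spots and spots flagged as outliers were left out and the remaining spots of a probe averaged, which left 20 probe values empty. Of 41174 probes, 29462 were well above background on at least 4 arrays, and the probe with the highest mean per gene gave 19386 features. Names were matched to GRCm38.p6 for 24490 probes by accession, 6234 by symbol and 2391 by synonym, and 8059 had none; probe coordinates are mm8. limma 3.58.1 (lmFit, eBayes) fitted genotype to all features (R 4.3.3; files read with data.table, version 1.17.8), with Benjamini-Hochberg adjustment and calls at an adjusted p under 0.05. The code was tested on simulated data. Bounds set undetected levels to the lowest level called above background on each array.

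The members and lists were chosen with earlier results of these data known. Named were all members, Sox9, up to 4 called genes per list by adjusted p, the marker genes and the 5 features closest to Gm131; exceptions are stated. Labels describe 4 biological replicates per genotype; the number of arrays limits precision. Replicate numbers are shared between genotypes, but the deviations of same-numbered arrays correlated at 0.02, -0.02, 0.05 and 0.13, so they were not used as pairs.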

Additional observations from a re-analysis of the deposited data

Results flagged for a closer look

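In 10 of 76 groups of 4 arrays, 1 array lay far from the others, by Dixon's criterion. For independent, normally distributed values, chance marks about 1 in 20 groups. The groups here share the same 8 arrays and include genes named for their calls, so that rate is not a reference for the count. Mutant replicate 2 was the far array in 8 of the 10 groups. Its level was high for Cdx2 (-1.67, next mutant -6.96), Tff3 (-0.97, next -3.93), the dimmer Fabp2 probe (-2.23, next -7.72), the Sox9 probe A_51_P451606 (-0.57, next -2.12), Atp4a (-1.14, next -1.64) and Barx1 (1.06, next 1.02). It was low for the second Vil1 probe (-0.07, next 0.53) and for the summed pancreatic markers (7.69, next 8.20). Wild-type replicate 2 was high for the summed liver markers (6.47, next 6.21) and low for the summed smooth muscle markers (4.95, next 5.14).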

How the results depend on the processing

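Gm131 differed by 1.48 to 1.91 over the 9 alternatives that kept all arrays, the lowest when arrays were centred on their medians, where 0 members were called. That centring shifts all genes of an array alike. It moved the median difference over all features to -0.40, and Sox9, at -1.73, no longer passed the test (limma adjusted p = 0.110). Calls over all features numbered 1081, but 45 with median centring, 80 with normexp background correction, 397 without a filter, 716 with the mean of all probes, 2181 with the series table, 4797 with array weights and 145 with the replicate block. Without the filter the median difference over all features was 0.16. Leaving out 1 array gave 357 to 3364 calls, the highest without mutant replicate 2. The stomach list had 0 calls with median centring or normexp, 6 with array weights, 1 with the replicate block and 0 to 4 with an array left out. The intestinal list had 1 call with quantile normalization, median centring, normexp, no filter or the block, 5 with the series table, 14 with array weights and 1 to 9 with an array left out. The microvillus list had 0 calls with median centring, normexp or the block, 8 with array weights and 2 to 5 with an array left out. The transcription factors had 0 calls with median centring, normexp, no filter or the block, 1 with the mean of all probes, 9 with array weights and 0 to 7 with an array left out. The binding protein list had 0 calls with median centring, normexp or no filter, 1 with the block and 0 to 3 with an array left out. With an array left out, Sox9 ranged from -1.36 to -1.30. Among called genes, Barx1 turned to -0.13 with median centring and Klf5 to 0.012 with the mean of all probes. Tff1, at 0.20, was -0.33 with quantile normalization, -0.20 with median centring, -0.51 with normexp, -0.15 with the series table and -0.71 with array weights. The stomach median of 0.52 was -0.30 with quantile normalization, -0.36 with normexp, 0.12 with median centring and 0.0019 with the series table. The microvillus and transcription factor medians, both 0.02, were -0.22 and -0.13 with quantile normalization and -0.38 each with median centring. The Tff1 and Tff3 differences ranged from -0.66 to 0.63 and from -0.81 to 0.37 with an array left out, and Tff2 was -0.05 with median centring. Apart from the shift that median centring gives to all genes alike, the cause of these changes was not tested. Low signal limits Cdx1, Cdx2 and the dimmer Fabp2 probe most.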
